A study of Mus musculus with 12 samples.

Results

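The neuronal immediate early genes are the 10 genes Arc, Fos, Fosb, Junb, Egr1, Egr2, Egr3, Egr4, Npas4 and Nr4a1, taken by symbol from a table of read counts for 25239 gene symbols, and all 10 had a row there. The table holds messenger RNA sequencing of brain and liver from aged mice, in 12 libraries that form 4 groups of 3: control brain, heat stress brain, control liver and heat stress liver. All groups were male C57BL/6J wild-type mice of 24 months. The heat stress groups were kept at 40 ± 0.5 °C and 60% ± 5% relative humidity for 3 h per day over 15 days, and the control groups were not exposed. The question asked of these genes was whether their level in brain differed after this periodic heat, with liver measured beside it as a tissue without neurons. Brain RNA came from a small piece of frozen tissue whose region is not named in the labels. By the ages in the study's methods, tissue was collected about a day after the last heat session. The time of day and the exact hours since that session are not given in the sources used here. The methods give 3 animals per group, so brain and liver of a group would come from the same mice, but which libraries share a mouse is not given, and the fits across tissues treated all libraries as independent.

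Immediate early genes are transcribed within minutes of a stimulus from transcription factors that already sit in the cell, so they need no new protein. In neurons the stimulus is synaptic activity and calcium entry, which act through the cyclic AMP response element binding protein CREB and the serum response factor SRF, and their RNA is short-lived, so its level follows recent firing. Most members encode transcription factors that set a later wave of gene expression, whereas Arc encodes a protein that acts directly at the synapse. Several members are also induced in non-neuronal cells by growth factors, stress and handling.

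The upstream sequences are shown first so that the letters known to be read by CREB and SRF can be looked for in this family. Windows of 7 of the 10 members were read from RefSeq's promoter table, on build GRCm38.p6. Those of Arc, Egr1 and Egr3 were not read. Each window was the 250 bases before the start site on the gene's own strand, written in the direction of transcription. Capitals mark TGACG, the core of the cyclic AMP response element, on either strand, and the CArG box bound by SRF. Npas4 and Egr2 are shown as the members with the largest fitted differences in brain among those read, and Fos and Nr4a1 as members that are also expressed in liver. The windows lie at chr19:4989972-4990221 on the minus strand for Npas4, chr10:67537619-67537868 on the plus strand for Egr2, chr12:85473640-85473889 on the plus strand for Fos and chr15:101266596-101266845 on the plus strand for Nr4a1.
Npas4: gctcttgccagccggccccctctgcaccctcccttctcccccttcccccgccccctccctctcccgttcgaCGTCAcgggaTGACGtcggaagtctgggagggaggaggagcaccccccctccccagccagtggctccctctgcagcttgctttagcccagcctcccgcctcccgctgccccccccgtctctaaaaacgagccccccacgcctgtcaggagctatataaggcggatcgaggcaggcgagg
Egr2: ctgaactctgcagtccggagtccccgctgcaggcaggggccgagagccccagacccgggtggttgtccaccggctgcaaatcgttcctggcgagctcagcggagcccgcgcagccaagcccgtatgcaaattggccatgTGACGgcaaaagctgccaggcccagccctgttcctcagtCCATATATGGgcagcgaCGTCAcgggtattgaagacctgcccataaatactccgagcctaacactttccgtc
Fos: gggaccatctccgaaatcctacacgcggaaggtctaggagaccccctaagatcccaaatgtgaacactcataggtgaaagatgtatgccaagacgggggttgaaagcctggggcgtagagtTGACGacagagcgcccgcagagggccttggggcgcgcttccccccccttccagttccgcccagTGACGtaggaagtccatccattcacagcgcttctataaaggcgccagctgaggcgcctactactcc
Nr4a1: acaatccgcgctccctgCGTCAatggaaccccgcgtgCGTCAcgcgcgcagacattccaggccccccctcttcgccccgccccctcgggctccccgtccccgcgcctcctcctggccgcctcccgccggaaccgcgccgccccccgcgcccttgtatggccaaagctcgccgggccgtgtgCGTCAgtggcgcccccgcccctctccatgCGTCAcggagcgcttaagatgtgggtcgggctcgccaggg

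TGACG occurred on one strand or the other in a window of all 7 members read, against 19.8% of the 27018 genes with a listed window and 17.8% of the 32841 windows of this length. Nr4a1 held 4 copies, and Npas4, Fos, Egr4 and the printed Egr2 window held 2 each. Egr2 has 5 listed starts, of which 3 had the motif in their window. The full palindrome TGACGTCA, which contains TGACG on both strands, was in none of the 7 members' windows and in a window of 1.77% of genes. The CArG box was found in Egr2, where the copy in the printed window begins 72 bases before the start site. It was in no window of the other 6 members read, and in a window of 1.62% of genes. The letters TGANTCA, read by the Fos and Jun family on either strand, were in none of the members' windows and in those of 7.82% of genes. TATAAA on the gene's strand was found in Fos, beginning 33 bases before the start site, and in none of the other 6 members read, against 8.93% of genes. These matches describe letters in a window, and no binding was measured.

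Library totals ran from 11.9 to 14.6 M counts in control brain, 10.6 to 11.1 in heat stress brain, 10.5 to 15.6 in control liver and 13.6 to 13.8 in heat stress liver. The 10 neuronal markers used to check the tissue label, such as Syn1 and Nefm, summed to between 7393 and 9897 CPM (read counts scaled to library size and normalized for library composition by edgeR's TMM method within each tissue) in the brain libraries and to between 15.3 and 35.8 in the liver libraries. A set of 8 hepatocyte markers summed to at most 17.3 CPM in brain. Control liver 1 stood apart from the other livers, with the highest neuronal sum (35.8 against at most 19.4), the highest oligodendrocyte sum (48.9 against at most 22.3) and 312 CPM of 8 skeletal muscle markers. Heat stress liver 2 carried 1906 CPM of the muscle markers, and the remaining 4 livers at most 6.23. The members' heat stress values in liver are therefore also given without control liver 1, and for some members without heat stress liver 2 as well.

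Levels in control brain, compared between genes as CPM per kilobase of exon, spread widely across the family. For these levels per kilobase, in brain and in liver, CPM was normalized by TMM over all 12 libraries together, so they are on another scale than the within-tissue CPM given for single libraries. Arc, the activity-regulated cytoskeleton-associated protein of postsynaptic sites, was highest at 53.7 ± 11.9 (SD, n = 3). Egr1, a zinc finger factor used as a marker of neuronal activation, followed at 39.3 ± 11.6, and the ranges of the 2 genes overlapped. Nr4a1, an orphan nuclear receptor, Egr3 and Junb lay close together at 22.2, 21.7 and 19.9 per kilobase and their ranges overlapped. Fos stood at 12.6 ± 2.95, Egr4 at 7.16 ± 1.37 and Npas4 at 5.63 ± 2.16, with overlap between the last pair. Egr2 and Fosb closed the order at 1.79 and 1.55 with overlapping ranges, and each of their libraries lay below the lowest Npas4 library. In heat stress brain Arc and Egr1 were again first and second at 24.0 ± 3.46 and 23.2 ± 3.97 per kilobase.

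Heat stress brain had a lower mean level than control brain for all 10 members. Fitted log2 fold changes ran from -1.45 for Npas4 to -0.37 for Junb, with a median of -0.68 against -0.003 over the 14806 genes tested, and 2.61% of those genes lay below the members' median. No member passed an adjusted p of 0.05 in edgeR's quasi-likelihood test (adjusted over all genes after Benjamini and Hochberg), in which the members ran from 0.170 to 0.331 and no gene was called lower in the whole table (0%). By the same edgeR test, 6 members were lower at an unadjusted p under 0.05, against 10% of all genes tested. That count was 3 when all 12 libraries were fitted together and 5 to 9 when single brain libraries were left out. In 5 members all heat stress libraries lay below all control libraries, against 12% of all genes. DESeq2, run as an alternative, gave an adjusted p to 7 members and called 4 of them lower, Arc, Npas4, Egr1 and Egr3, against 3.66% of the 7987 genes to which it gave one. These p-values measure the spread between 3 mice per group, and a single gene compared between 3 and 3 mice cannot go below 0.1 in an exact permutation test. In pieces of whole tissue, fewer cells that carry these transcripts and less of the transcript per cell cannot be told apart.

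**Figure D1:**
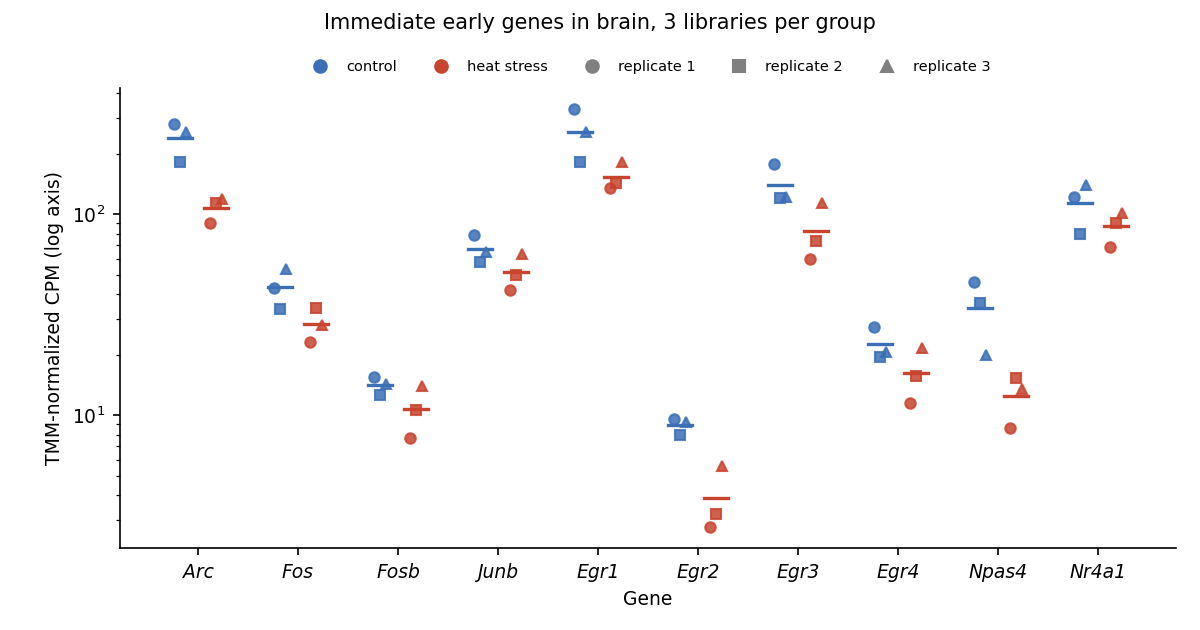
TMM-normalized CPM on a log axis for the 10 genes in the 3 control and 3 heat stress brain libraries; marker shape gives the replicate and the short line the group mean. All 10 heat stress means lie below the control means, and heat stress 1 (red circle) is the lowest of the 6 libraries for each gene.

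Arc (chr15:74669083-74672570, minus strand) had 281, 181 and 257 CPM in the control brains and 90.7, 114 and 120 CPM in the heat stress brains. The groups did not overlap, and the gap between the lowest control and the highest heat stress library was wider than the range among the heat stress libraries. The fitted log2 fold change of Arc was -1.15 (SE 0.18), with an adjusted p of 0.170 in edgeR and 4.04e-06 in DESeq2. Arc was also a smaller share of the family: it gave 24.8 to 26.8% of the summed CPM of the 10 members in control brain and 18.1 to 20.7% in heat stress brain.

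Npas4 (chr19:4984355-4990316, minus strand) encodes a neuron-restricted factor of the bHLH-PAS class that is induced by calcium entry. It was measured at 46.1, 36.1 and 20.0 CPM in control brain and 8.68, 15.3 and 13.5 CPM in heat stress brain. The groups did not overlap, although control 3 lay much nearer to the heat stress libraries than the other controls did. Its fitted log2 fold change was the lowest of the family at -1.45 (SE 0.30), with an adjusted p of 0.170 in edgeR and 0.00127 in DESeq2.

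The Egr genes encode zinc finger factors that bind the same GC-rich element. Egr2 (chr10:67535475-67542188, plus strand) gave 9.53, 7.94 and 9.23 CPM in control brain and 2.77, 3.22 and 5.57 CPM in heat stress brain. Its groups did not overlap, the log2 fold change was -1.21 (SE 0.27) with an edgeR adjusted p of 0.170, and DESeq2 gave it no adjusted p. Egr3 (chr14:70077203-70082614, plus strand), which contributes to synaptic plasticity and muscle spindle development, gave 177, 121 and 121 CPM in control brain and 60.0, 73.3 and 113 CPM in heat stress brain. These groups also did not overlap, with heat stress 3 close under the lower controls, and the log2 fold change was -0.77 (SE 0.24; adjusted p 0.172 in edgeR and 0.0277 in DESeq2).

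Egr1 was measured at 334, 183 and 256 CPM in control brain and 135, 142 and 182 CPM in heat stress brain. The groups were separate by a margin of under 1 CPM, between control 2 and heat stress 3, and they overlapped when CPM was normalized over all 12 libraries (124.2 against 124.6), which leaves 4 members without overlap. The log2 fold change was -0.75 (SE 0.21; adjusted p 0.170 in edgeR and 0.0190 in DESeq2). Egr4 (chr6:85511121-85513589, minus strand) gave 27.4, 19.4 and 20.7 CPM in control brain and 11.4, 15.7 and 21.5 CPM in heat stress brain. Here the groups overlapped, since heat stress 3 exceeded controls 2 and 3, and the log2 fold change was -0.47 (SE 0.23; edgeR adjusted p 0.277).

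Fos, Fosb and Junb encode partners in the AP-1 dimer. Fos (chr12:85473890-85477273, plus strand) gave 42.8, 33.7 and 53.3 CPM in control brain and 23.3, 34.1 and 28.1 CPM in heat stress brain. The overlap came from heat stress 2 and control 2 alone, and the log2 fold change was -0.60 (SE 0.19), with an adjusted p of 0.172 in edgeR and 0.0535 in DESeq2. Fosb (chr7:19302696-19310051, minus strand), whose truncated protein form accumulates in striatal neurons under repeated stimulation, gave 15.5, 12.7 and 14.2 CPM in control brain and 7.66, 10.6 and 14.0 CPM in heat stress brain. Heat stress 3 lay within the controls, and the log2 fold change was -0.40 (SE 0.22; edgeR adjusted p 0.324). A table of gene symbols does not separate the forms of Fosb.

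Junb (chr8:84974484-84978718, minus strand) gave 78.5, 57.9 and 64.7 CPM in control brain and 42.2, 49.9 and 63.1 CPM in heat stress brain. Its log2 fold change was the nearest to 0 of the family at -0.37 (SE 0.17; edgeR adjusted p 0.256), and heat stress 3 lay within the controls. The gene overlaps Prdx2 on the opposite strand, and the use of strand in counting is not given in the sources used here, so reads from Prdx2 may be among its counts. Nr4a1 (chr15:101254269-101274795, plus strand) gave 121, 79.7 and 140 CPM in control brain and 69.1, 90.1 and 102 CPM in heat stress brain. Control 2 lay below heat stress 2 and 3, and the log2 fold change was -0.39 (SE 0.21; edgeR adjusted p 0.331, the highest of the family).

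The members ordered the brain libraries much alike. Heat stress 1 was the lowest of the 6 brain libraries for all 10 genes, control 1 the highest for 8 and control 3 the highest for the other 2, Fos and Nr4a1. Within the heat stress group, library 3 was the highest for 8 members. The summed CPM of the family was 1134, 732 and 956 in control brain and 450, 548 and 663 in heat stress brain, so the groups did not overlap while the range within control was wider than the gap between the groups. The median biological coefficient of variation was 0.189 for the members and 0.146 for all genes tested. Leaving out each brain library in turn moved the median log2 fold change between -0.81 and -0.54.

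Marker genes of brain regions and of other cell types were also compared between the brain groups, where edgeR called no gene at an adjusted p under 0.05. All 12 striatal medium spiny neuron markers had a positive log2 fold change, 11 of them at an unadjusted p under 0.05 in edgeR against 10% of all genes called higher in that way, and their median was 1.19, from 0.74 for Pde10a to 2.17 for Ido1. DESeq2 called 4 of them higher, the dopamine receptor Drd1 (1.18), Adora2a (1.36), Ppp1r1b (1.07) and Tac1 (1.21). Their summed CPM was 546, 951 and 536 in control brain and 1293, 927 and 2038 in heat stress brain. Of 14 markers of excitatory neurons of cortex and hippocampus, where the members are induced strongly, 12 had a negative log2 fold change, 1 at an unadjusted p under 0.05 against 10% of all genes, with a median of -0.37, and the highest was Crym (0.74), which DESeq2 called higher. Their sum was 3792, 2511 and 2005 CPM in control brain and 1961, 2052 and 2617 CPM in heat stress brain, so the groups overlapped. Heat stress 1 was lowest and control 1 highest for this list, as for the members, whereas control 3 and heat stress 3 did not keep the members' order.

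Of 8 endothelial markers 7 were lower at an unadjusted p under 0.05 in edgeR, against 10% of all genes, with a median log2 fold change of -0.99, and of 8 choroid plexus markers 5 were lower, with a median of -1.38. DESeq2 called Flt1 (-1.06) among the endothelial markers and Kl (-1.42) among the choroid plexus markers lower, and in each list the remaining values reached from Kdr (-1.16) and Tmem72 (-1.71) up to Slco1a4 (-0.23) and Clic6 (-0.52). Summed endothelial markers ran from 164 to 299 CPM in control brain and from 117 to 153 CPM in heat stress brain. The sums of 9 thalamus and habenula markers ran from 248 to 814 CPM in control brain and from 213 to 472 CPM in heat stress brain, and their log2 fold changes from -1.97 for Prkcd to 0.13 for Calb2. The neuronal markers summed to 9897, 8050 and 7393 CPM in control brain and to 8053, 7468 and 7819 CPM in heat stress brain, with a median log2 fold change of -0.14, from -0.70 for Nefm, called lower by DESeq2, to 0.25 for Stmn2. In none of the 6 brain libraries was a marker of neurons, striatum, or cortex and hippocampus at 0. The part of these markers in the members' difference was not tested.

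**Figure D2:**
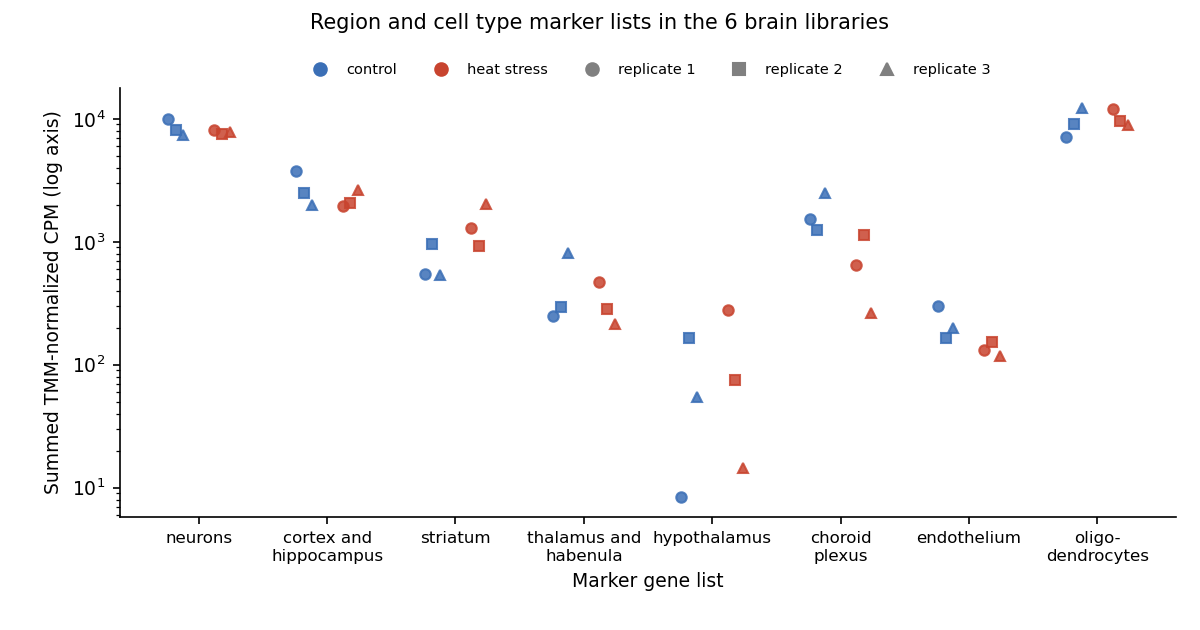
Summed TMM-normalized CPM on a log axis of marker lists for regions and cell types in the 3 control and 3 heat stress brain libraries; marker shape gives the replicate. Striatal sums are 536 to 951 in control and 927 to 2038 in heat stress, and the cortex and hippocampus sums of the groups overlap.

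Scaling the libraries to these markers shifts all genes by about the same amount, so it gives the members on another reference level and does not test the markers' part. Scaled to the sum of the neuronal markers, the 10 members had a median log2 fold change of -0.56, while the median of all genes moved to 0.10. Scaled to the cortex and hippocampus markers, the members' median was -0.43 against 0.25 for all genes, and 3 members were lower at an unadjusted p under 0.05 in edgeR. Relative to the median of all genes, the members' median was -0.67 under TMM, -0.66 on the neuronal markers and -0.68 on the cortex and hippocampus markers. Corrected for the length and GC content of each gene's exons, the median was -0.57. Arc stayed between -1.32 and -0.90 and Npas4 between -1.72 and -1.10 over all settings, leave-one-out fits included. Relative to their own size, the 4 members with the smallest differences depended more on single libraries than the other members did. Leave-one-out values ran from -1.72 to -1.16 for Npas4, from -1.57 to -1.03 for Egr2 and from -1.07 to -0.56 for Egr3. These ranges were wider in log2 units than those of the 4 members. Fosb ran from -0.63 without heat stress brain 3 to -0.21 without heat stress brain 1, and Egr4 from -0.73 to -0.28 without the same libraries, with -0.31 without control brain 1. Nr4a1 ran from -0.59 without control brain 2 to -0.21 without control brain 3, with -0.25 without heat stress brain 1, and Junb came to -0.25 without control brain 1. Under the cortex and hippocampus scaling these 4 lay between -0.22 and -0.12.

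**Figure D3:**
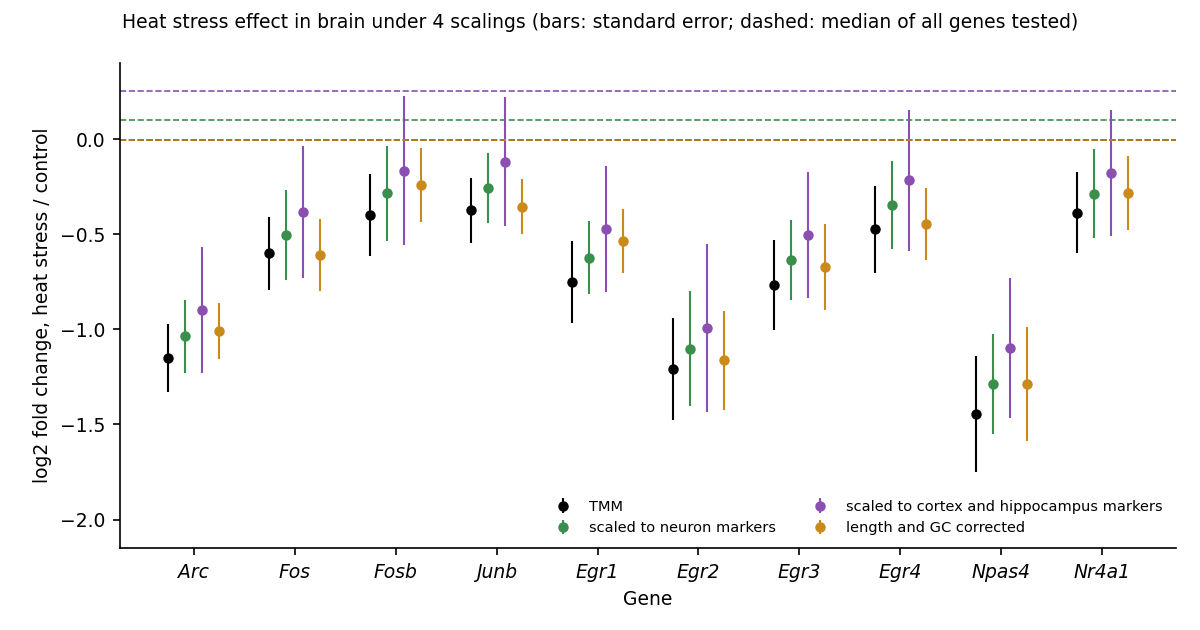
Fitted log2 fold changes of heat stress over control in brain, with standard errors as bars, for the 10 genes under TMM, under scaling to neuron markers, under scaling to cortex and hippocampus markers and with length and GC correction; dashed lines are the median of all genes tested in each setting. All 40 points lie below 0, and the distance of the members' median from the dashed line is -0.67 under TMM and -0.68 under the cortex and hippocampus scaling.

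Further genes that neurons induce with activity were less uniform. Of 50 such companions 48 were tested in brain, of which 9 were lower and 1 higher at an unadjusted p under 0.05 in edgeR, against 10% of all genes in each direction, and the median log2 fold change was -0.15. DESeq2 called 3 of them lower. These were Nptx2, a secreted pentraxin that gathers AMPA receptors (log2 fold change -0.95, DESeq2 adjusted p 0.0128), Vgf, a neuropeptide precursor (-0.83, 0.0113), and Sorcs3, a sorting receptor of the postsynaptic density (-0.88, 0.00659). Nptx2 gave 58.4, 36.0 and 32.3 CPM in control brain and 18.2, 19.3 and 28.1 CPM in heat stress brain, without overlap. Vgf gave 253, 140 and 171 CPM in control brain and 105, 91.9 and 120 CPM in heat stress brain, also without overlap.

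The other companions lower at an unadjusted p under 0.05 in edgeR were Trib1 (-0.65), the kinase phosphatases Dusp4 (-0.77) and Dusp6 (-0.42), Ptgs2, the inducible cyclooxygenase (-0.70), Klf10 (-0.41) and Pim1 (-0.52), and the higher one was Rgs2 (0.48), a regulator of G-protein signalling. The highest companion was Amigo3 (0.54, edgeR adjusted p 0.346). Bdnf, the neurotrophin, had a log2 fold change of -0.12 (SE 0.14), Homer1 of -0.18 (SE 0.19), Nr4a2 of 0.29 (SE 0.15) and Nr4a3 of -0.09 (SE 0.22). Dusp1, another early-induced phosphatase, had -0.24 (SE 0.16) and Jun -0.13 (SE 0.10), and none of these 6 had an edgeR adjusted p under 0.05.

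Of 34 upstream regulators, the receptors, kinases and factors that drive the family, 32 were tested in brain, of which 8 were lower and 1 higher at an unadjusted p under 0.05 in edgeR, against 10% of all genes in each direction, with a median log2 fold change of -0.08. DESeq2 called 2 lower: Grin2b, a subunit of the NMDA receptor (-0.86, DESeq2 adjusted p 0.0126), and Ep300, a histone acetyltransferase that works with CREB (-0.46, 0.0325). The highest was Rps6ka5 (0.40), a kinase that phosphorylates CREB. By the same criterion and against the same 10%, 4 of 10 inducible heat shock genes were lower, among them Hspa1a (-0.85) and Hspa1b (-1.06), and 1 was higher, Hspe1 (0.54). Of 11 genes that follow the daily clock, 6 had a positive and 5 a negative log2 fold change, and 4 were higher and 1 lower at an unadjusted p under 0.05, again against 10% in each direction, among them Dbp (0.56) and Nr1d2 (0.48), both called higher by DESeq2, and Arntl (-0.51). Of 10 glucocorticoid targets, 7 had a positive and 3 a negative log2 fold change and 1 was lower at an unadjusted p under 0.05, the same share as over all genes, and their values ran from -0.58 for Zbtb16 to 0.48 for Sult1a1. The part of these lists in the members' difference was not tested.

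The genes whose profile over the 6 brain libraries lay nearest to the members' mean profile, by the root mean square distance of centred log2 CPM, were Trib1 (0.099), Iqgap2 and Zbtb40 (0.107 each), 5830417I10Rik (0.108) and Peak1 (0.113). Trib1 itself gave 25.1, 18.6 and 22.0 CPM in control brain and 12.2, 13.5 and 16.2 CPM in heat stress brain. The members lay between 0.139 (Egr3) and 0.488 (Npas4) from their own mean, so Npas4 followed the shared profile least closely. This is a description over 6 libraries in which group and library are not independent.

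In liver the family split into genes that were expressed and genes that were near the detection floor. Npas4 had 0 counts in all 3 control livers, and against a floor of 3 counts per library its raw CPM in control brain was at least 139-fold higher. Arc had 7, 3 and 3 counts in the control livers and 0, 4 and 2 in the heat stress livers, Egr3 had 8, 0 and 1 against 3, 8 and 0, and Egr4 had 2, 0 and 0 against 0, 1 and 0. In control liver 1, the library with the highest neuronal marker sum, Arc, Egr3 and Egr4 were the highest of the control livers. These 4 genes passed the low count filter of the fit of all 12 libraries only through brain, so their edgeR calls there as higher in control brain, a direction called for 44.2% of all genes, follow from how they entered and support nothing further.

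Junb was called lower in control brain than in control liver (log2 fold change -1.20, SE 0.36, edgeR adjusted p 0.00759), against 36.1% of all genes called lower, and its groups overlapped through control liver 1. Per kilobase of exon and on the scale of all 12 libraries, control liver held 67.6 ± 70.5 CPM of Egr1, 45.8 ± 24.7 of Junb, 29.2 ± 27.3 of Fos and 17.1 ± 16.6 of Nr4a1 (SD, n = 3). The SD was about as large as the mean for Egr1, Fos and Nr4a1, and these 3 were not called between the tissues with all libraries in the fit. Without control liver 1, Fos (-1.78, edgeR adjusted p 2.96e-05) and Egr1 (-1.34, 0.00199) were called lower in brain. Without control liver 3, Fosb (2.92, 0.00288) and Egr2 (2.52, 0.00455) were called higher in brain and the call for Junb was lost (-0.85, 0.0528). With all libraries, limma voom also called Fosb (2.42, adjusted p 0.0151) and Egr2 (2.11, 0.0137) higher in brain.

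**Figure D4:**
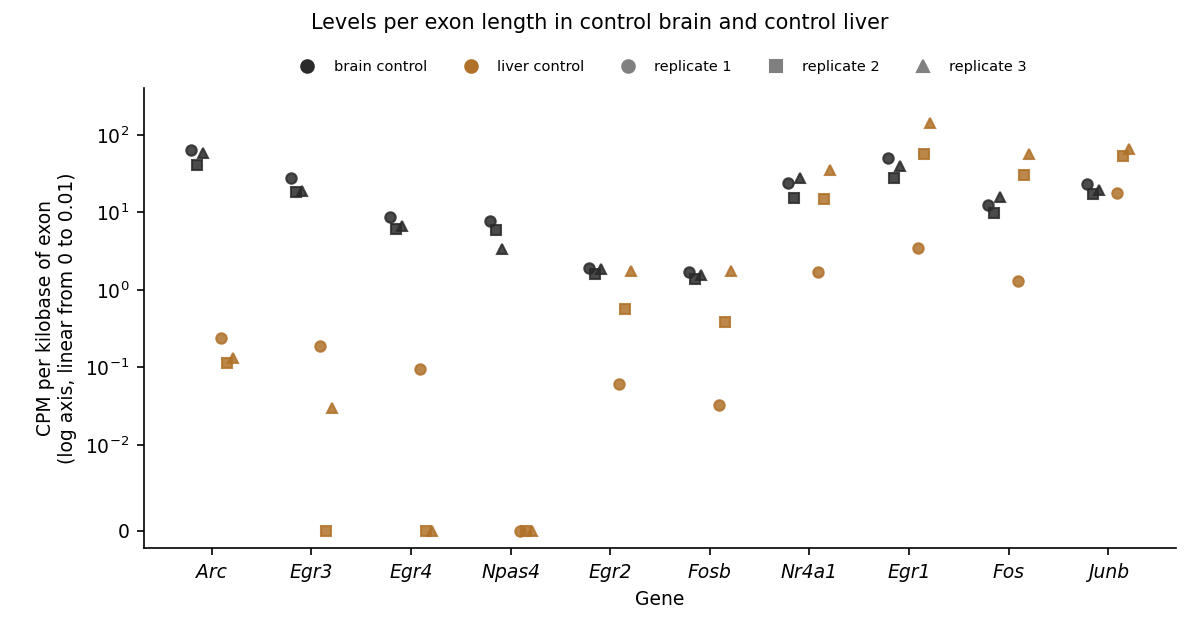
CPM per kilobase of exon, normalized over all 12 libraries, of the 10 genes in the 3 control brain and 3 control liver libraries, on a log axis that is linear below 0.01. Arc, Egr3, Egr4 and Npas4 lie near or at 0 in liver, while Egr1, Fos, Junb and Nr4a1 spread over more than 1 order of magnitude in liver except Junb.

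The fitted heat stress values of the family did not share a direction in liver, where 5 were positive and 1 negative. The 6 members tested there were Fos, Fosb, Junb, Egr1, Egr2 and Nr4a1, with a median log2 fold change of 0.26, and none was called higher by edgeR, where 0% of all genes were, or had an unadjusted p under 0.05. Control liver 1 was the lowest of the 6 livers for all 6 genes. Egr1 gave 9.75, 179 and 450 CPM in control liver and 205, 228 and 272 CPM in heat stress liver, and Fos gave 1.94, 51.2 and 92.1 against 60.5, 50.04 and 39.4. For both genes the control range enclosed all heat stress values, with log2 fold changes of 0.14 (SE 1.19) and 0.05 (SE 1.17). Without control liver 1 these became -0.44 (SE 0.35) and -0.53 (SE 0.26).

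Junb gave 25.9, 88.3 and 106 CPM in control liver and 114, 173 and 117 CPM in heat stress liver, the only member whose groups did not overlap there, against 5.38% of all genes higher without overlap. Its log2 fold change was 0.88 (SE 0.43), with an edgeR adjusted p of 0.882, and 0.46 (SE 0.22) without control liver 1. Nr4a1 gave 3.68, 37.4 and 85.5 CPM in control liver and 34.5, 160 and 76.7 CPM in heat stress liver, with a log2 fold change of 1.10 (SE 1.17) that became 0.54 (SE 0.89) without control liver 1. In a fit chosen after seeing the data that also left out heat stress liver 2, the value for Nr4a1 was -0.16. Fosb (log2 fold change 0.37, SE 1.08) and Egr2 (-0.40, SE 0.86) were below 8 CPM in every liver library, and without control liver 1 their values were -0.24 (SE 0.87) and -1.01 (SE 0.58). The median biological coefficient of variation of the 6 genes in liver was 0.915, against 0.213 for all genes tested.

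Among the companions, 35 were tested in liver, of which 3 were lower and 7 higher at an unadjusted p under 0.05 in edgeR, against 2.87% and 2.97% of all genes. DESeq2 called Csrnp1 (log2 fold change 1.08, DESeq2 adjusted p 0.00554) and Per1 (1.24, 0.0353) higher in liver. Csrnp1, a cysteine- and serine-rich nuclear protein, gave 13.6, 11.9 and 10.8 CPM in control liver and 19.8, 27.2 and 30.2 CPM in heat stress liver, and control liver 1 did not stand apart for it. The highest companion in liver was Dusp4 (1.84, SE 0.38, edgeR adjusted p 0.305), whose groups did not overlap, and the lowest was Inhba (-0.58, SE 0.29). In brain Csrnp1 had a log2 fold change of -0.49 (SE 0.22) and Per1 of 0.02 (SE 0.22).

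**Figure D5:**
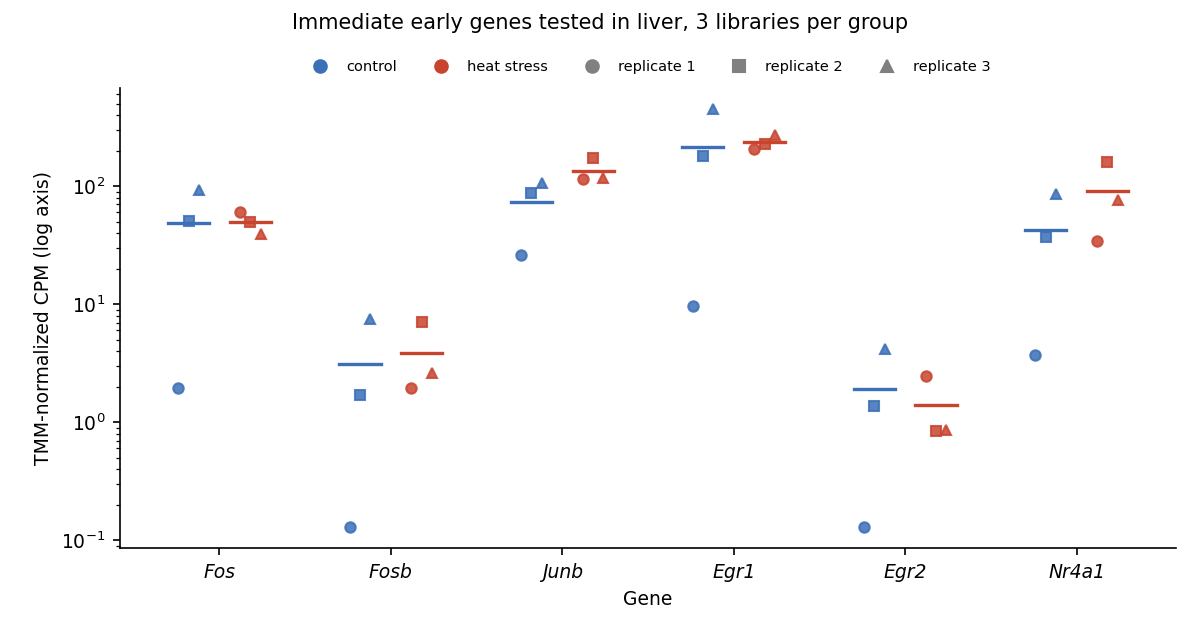
TMM-normalized CPM on a log axis of the 6 genes tested in liver, in 3 control and 3 heat stress liver libraries; marker shape gives the replicate and the short line the group mean. Control 1 (blue circle) is the lowest library for every gene, and Junb is the only gene whose groups do not overlap.

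The difference of the heat effect between the tissues, brain minus liver, was negative for all 6 members tested in both, from -1.54 (SE 1.16) for Nr4a1 to -0.70 (SE 1.15) for Fos. The sizes rested on single livers. Without control liver 1 the differences were -0.13 for Fos, -0.22 for Fosb, -0.37 for Egr1, -0.25 for Egr2 and -1.002 for Nr4a1, whereas without control liver 3 they were -1.57, -2.56, -2.11, -2.14 and -2.58. Fosb came to -0.0011 and Nr4a1 to -0.81 without heat stress liver 2, Egr2 to -0.15 without heat stress liver 1 and Fosb to -0.51 without control liver 2. None had an edgeR adjusted p under 0.05, and these ran from 0.516 to 0.864. Junb had the smallest unadjusted p of the 6, at a difference of -1.28 (SE 0.51, edgeR unadjusted p 0.0243, adjusted p 0.516), where 3.73% of all genes were lower at an unadjusted p under 0.05. Without control liver 1 the difference for Junb was -0.90 (SE 0.31, edgeR adjusted p 0.156). Approximate limits of 2 standard errors around the other 5 differences include 0 with and without that library. In the fit of all 12 libraries the median biological coefficient of variation of the 6 genes was 0.683, against 0.188 for all genes tested. The 4 members near the floor in liver allow no such comparison.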

How the data were processed

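Messenger RNA of brain and liver was sequenced in 12 libraries, each taken as 1 replicate. The authors deposited raw read counts per gene symbol. Per the labels and the submitters' processing notes, reads were checked with FastQC 0.11.9, trimmed with Trimmomatic 0.39, aligned to mm10 with HISAT2 2.2.1 and counted with featureCounts of Subread 2.0.1. The paper's methods also describe a Tophat2 and HTSeq route, and the annotation and strand setting are not given in the sources used here. The authors' own fold change tables hold their DESeq2 comparisons and were not used.

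Within brain and within liver, the heat stress libraries were tested against controls in edgeR 4.0.16 (R 4.3.3) by the quasi-likelihood test with TMM normalization, robust estimates, filterByExpr (minimum count 10, minimum total 15) and Benjamini-Hochberg adjustment over all genes tested, 14806 in brain and 12296 in liver. A fit of all 12 libraries (15824 genes) gave the brain minus liver difference and the control tissues. DESeq2 1.42.0, limma 3.58.1, other scalings, no low count filter, a replicate block and leaving out each library were alternatives. A standard error is the size of the log2 fold change divided by the root of its F statistic. Exon lengths and positions came from GENCODE on GRCm38. Of 200 genes simulated with a 4-fold change, edgeR recovered 197 in the brain design with 15 false calls, and DESeq2 199 with 28. No member's fitted change in brain reached 4-fold, so these counts do not give the recovery of changes as small as the members'. The members and all lists were chosen with earlier results of these data known. Named were all members, the lowest and highest gene of a described list, genes with an adjusted p under 0.05 in a list and comparison that the text describes, and the 5 nearest profiles, except 1 list gene that is not reported here. Other companions, Hspa1a and the brain values of Csrnp1 and Per1 were named after their values were seen. Counting error only, not mouse variation, is covered by the floor of 3 counts.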

Additional observations from a re-analysis of the deposited data

How the results depend on the processing

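All 160 brain values of the members over 16 other settings were negative. The number of members called in brain moved under DESeq2, from 0 to 4, and was 0 in the other 15 settings, limma voom and leaving out each brain library among them. In liver no value passed the threshold, Junb stayed positive in all settings (0.24 to 1.24), and the other 5 members changed direction in at least 1 setting; the cause was not tested. Egr2 was 0.52 with limma voom, and leave-one-out values ran from -1.13 to 0.91 for Egr2, from -0.53 to 0.91 for Fos, from -0.41 to 2.12 for Fosb and from -0.44 to 1.31 for Egr1. For Nr4a1 the leave-one-out values stayed positive, from 0.41 to 2.14. With length and GC correction Fos was -0.095 and Egr1 was -0.069. In the 4 livers other than control 1 and heat stress 2, Fos was -0.53, Fosb -1.03, Egr1 -0.42 and Nr4a1 -0.16. In DESeq2 without control liver 1, Fos was -0.54, Fosb -0.28 and Egr1 -0.45. Between control brain and control liver, limma voom gave 0.0021 for Fos and 0.32 for Egr1, DESeq2 without control liver 1 gave -0.14 for Nr4a1, and leave-one-out values ran from -1.34 to 0.40 for Egr1 and from -0.16 to 1.42 for Nr4a1. The fit of 4 livers, DESeq2 without control liver 1 and the length and GC correction were chosen after seeing the data. Deviations of same-numbered control and heat stress libraries correlated between -0.29 and 0.19 in brain and between -0.58 and -0.09 in liver. Control and heat stress mice differ, so this cannot show whether a number marks the same mouse in brain and liver, which was not tested. A replicate block gave 0 calls and a median log2 fold change of -0.66 in brain. The precision is limited by 3 mice per group.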
